A study of Mus musculus with 6 samples.

Results

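Inflammasome and pyroptosis genes were examined in macrophages grown from the marrow of Cd28 knockout and of wild-type mice. The 10 genes were taken by Entrez identifier from the deposited tables: the sensors Nlrp3, Nlrp1b, Nlrc4, Naip2, Naip5 and Aim2, the adaptor Pycard, the caspases Casp1 and Casp4, and the pore former Gsdmd. All 10 were found, among 14574 genes listed in at least 1 library, and all 10 were listed in each of the 6 libraries. The groups were Cd28 KO, with no strain background stated, and C57BL/6J wild type (WT), with 3 libraries each. Marrow came from the femurs of mice 6 to 10 weeks old and was cultured for 7 days in DMEM with 10% FCS, 2-ME and human M-CSF at 25 ng/ml, renewed every 2 days. M-CSF is the growth factor that turns marrow precursors into macrophages. The labels give no treatment of the cells. The labels used here state neither the sex of the mice, nor whether a library is 1 animal or a pool, nor whether numbered samples came from separate animals. P-values therefore cover only the spread among these 6 samples, which may be technical.

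An inflammasome is a protein platform that a cytosolic sensor builds when it meets a microbial or danger signal. NLRP3 responds to membrane and ion disturbance, NLRP1B to proteases such as anthrax lethal factor, AIM2 to cytosolic DNA, and NAIP proteins hand bacterial flagellin or secretion-system parts to NLRC4. The adaptor ASC, encoded by Pycard, links many sensors to caspase-1, which matures interleukin-1 beta and interleukin-18 and cuts gasdermin D, whose free end forms pores in the plasma membrane. Caspase-11, encoded by mouse Casp4, binds lipopolysaccharide in the cytosol and cuts gasdermin D directly, the noncanonical route. Resting macrophages are known to hold most of these proteins in inactive form, while Nlrp3 and Il1b are raised by a priming signal such as lipopolysaccharide.

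The members lie at 8 separate places in the genome, by NCBI RefSeq for GRCm38.p6, and all are protein-coding genes in GENCODE vM21. Casp1 (Entrez 12362, chromosome 9, 5298517 to 5307281) and Casp4 (Entrez 12363, chromosome 9, 5308849 to 5336791) are neighbours on the same strand with 1567 bases between them. Naip2 (Entrez 17948, chromosome 13, 100144063 to 100202122) and Naip5 (Entrez 17951, chromosome 13, 100211735 to 100250930) are 9612 bases apart. Nlrp3 (Entrez 216799) is on chromosome 11 at 59541569 to 59566955, and Nlrp1b (Entrez 637515) on the same chromosome at 71152574 to 71242514. Nlrc4 (Entrez 268973) is on chromosome 17 at 74426255 to 74459144, Pycard (Entrez 66824) on chromosome 7 at 127991373 to 127993867 and Gsdmd (Entrez 69146) on chromosome 15 at 75862144 to 75867408. Aim2 (Entrez 383619, chromosome 1, 173349547 to 173466040) is the 1 member on the chromosome of Cd28, 112.6 Mb away from it. Each value is for a whole gene, so exons and introns, untranslated ends and isoforms are not separated.

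Upstream sequence is shown for 3 members on which the values below turn: Nlrp3 and Casp4, which were high in the replicate 3 libraries, and Casp1, the neighbour of Casp4, which was not. Each line is the 250 bases before an annotated start, 5′ to 3′ on the gene's strand, from the RefSeq table for GRCm38.p6. Capitals mark matches to an NF-kB motif (GGG and TTTCC with 2 bases between) or a PU.1 motif (GAGGAAG), both searched on both strands. All 3 genes are on the plus strand.
Casp4 (chr9:5308599-5308848): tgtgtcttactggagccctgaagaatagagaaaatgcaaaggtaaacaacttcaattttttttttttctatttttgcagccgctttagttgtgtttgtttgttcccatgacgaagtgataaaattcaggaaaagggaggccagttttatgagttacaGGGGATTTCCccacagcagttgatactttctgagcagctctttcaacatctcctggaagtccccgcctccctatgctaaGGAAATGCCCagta
Casp1 (chr9:5298267-5298516): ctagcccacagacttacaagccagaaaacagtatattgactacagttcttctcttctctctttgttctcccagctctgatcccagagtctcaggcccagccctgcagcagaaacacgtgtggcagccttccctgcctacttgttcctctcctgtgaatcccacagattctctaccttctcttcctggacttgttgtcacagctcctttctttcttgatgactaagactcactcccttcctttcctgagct
Nlrp3, second of 2 annotated starts (chr11:59542436-59542685): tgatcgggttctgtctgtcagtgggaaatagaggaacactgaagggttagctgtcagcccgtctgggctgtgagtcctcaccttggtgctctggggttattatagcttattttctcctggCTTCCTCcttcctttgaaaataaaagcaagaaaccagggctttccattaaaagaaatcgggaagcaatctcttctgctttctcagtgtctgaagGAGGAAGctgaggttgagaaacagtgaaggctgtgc
Casp4 held 2 matches to the NF-kB motif, at -93 to -84 on the gene's strand and at -14 to -5 on the other strand, counted from the start site as +1. The second annotated start of Casp4 lies 11 bases further on, and its window holds the same pair. In windows of 250 bases before to 50 bases after the start, 1.63% of 32851 mouse promoters held this motif, and Casp4 was the 1 member among the 9 with an entry. Gsdmd had no entry, so its promoter was not searched for any of the motifs. The PU.1 motif, named for a transcription factor of the macrophage lineage, was found for Nlrp3, Nlrp1b, Aim2 and Pycard, and in 13.6% of all promoters. At the other Nlrp3 start there was no match. Neither an interferon regulatory factor motif (GAAA and GAAA with 2 bases between, in 3.44% of all promoters) nor a STAT motif (TTCNNNGAA, N being any base, in 8.3%) was found in any member window. The 4 motifs do not overlap each other in these windows, and a match shows letters only, not binding.

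Levels are in FPKM, which scales fragments to transcript length and to all mapped fragments, so that those of different genes can be set side by side. Each library listed 12768 to 13327 genes, and read numbers are not stated. The 9 macrophage markers examined, among them Csf1r and Adgre1, were listed in every library and summed to 14138 to 16921 FPKM. Markers of other cells summed to less. The 5 monocyte markers came to 25.0 to 38.4 FPKM, with Ccr2 at 20.1 to 29.7. The 9 neutrophil markers summed to 2.43 to 8.88 FPKM, with Retnlg at 0 throughout and Ly6g, Camp and Elane in at most 1 library each. For T cells, Cd3d was at 0 in all libraries and Cd3e and Cd3g in all but WT replicate 3, while Cd4 stood at 2.95 to 6.42 FPKM. For the targeted gene Cd28, the Cd28 KO libraries gave 25.7, 24.2 and 26.9 FPKM and the WT ones 38.2, 30.1 and 51.1, lower in every Cd28 KO library but not at 0 (exact two-sided permutation p = 0.1, the smallest that 3 against 3 allows). By limma, Cd28 had an adjusted p of 0.9995, or 0.18 with the replicate number as a block. A share of 2.87% of all tested genes was likewise lower in Cd28 KO without overlap. The direction thus goes with the labels, but these values alone do not establish the labels. Which part of Cd28 was targeted is not stated, so the loss of the protein is not shown either. Both replicate 3 libraries lay far from the rest over all genes, with principal component 1, 73.8% of the variance, at 34.8 and 36.1 against -18.2 to -17.4 in the others. Eif2s3y, Ddx3y, Kdm5d and Uty, on the Y chromosome, were listed in those 2 libraries alone, with Eif2s3y at 39.1 FPKM (Cd28 KO) and 31.8 FPKM (WT). Each result below is therefore also given by replicate number, and with replicates 1 and 2 alone where that changes it.

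Gsdmd and Casp1 were the most abundant members and Nlrc4 the least. Gsdmd averaged 64.1 FPKM over the 6 libraries (range 51.7 to 71.8) and Casp1 63.8 (56.5 to 75.4). Nlrp3 followed at 33.3 (18.6 to 62.7) and Pycard at 31.1 (24.2 to 39.1). Then came Aim2 at 17.2 (13.3 to 20.8), Casp4 at 15.9 (10.5 to 25.1) and Naip2 at 10.4 (8.15 to 12.6). Nlrp1b averaged 8.01 FPKM (4.92 to 10.3), Naip5 7.18 (4.19 to 9.14) and Nlrc4 1.99 (1.53 to 2.44). In this order only Pycard from Aim2, and Naip5 from Nlrc4, were separated by ranges over all 6 libraries that did not overlap. Part of the order rests on replicate 3: in each library of replicates 1 and 2 Pycard exceeded Nlrp3. Aim2 exceeded Casp4 in those libraries, as in the means, but lay below it in replicate 3, at 16.1 and 13.3 FPKM against 25.1 and 19.3. Casp1 and Nlrp3 overlapped through replicate 3 alone, since in replicates 1 and 2 Casp1 stood at 58.6 to 75.4 FPKM and Nlrp3 at 18.6 to 22.7. The shared downstream parts, the caspase-1 protease and its pore-forming substrate, thus stood above every sensor in replicates 1 and 2, while in the replicate 3 libraries Nlrp3, at 55.7 and 62.7 FPKM, lay above Gsdmd.

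**Figure D1:**
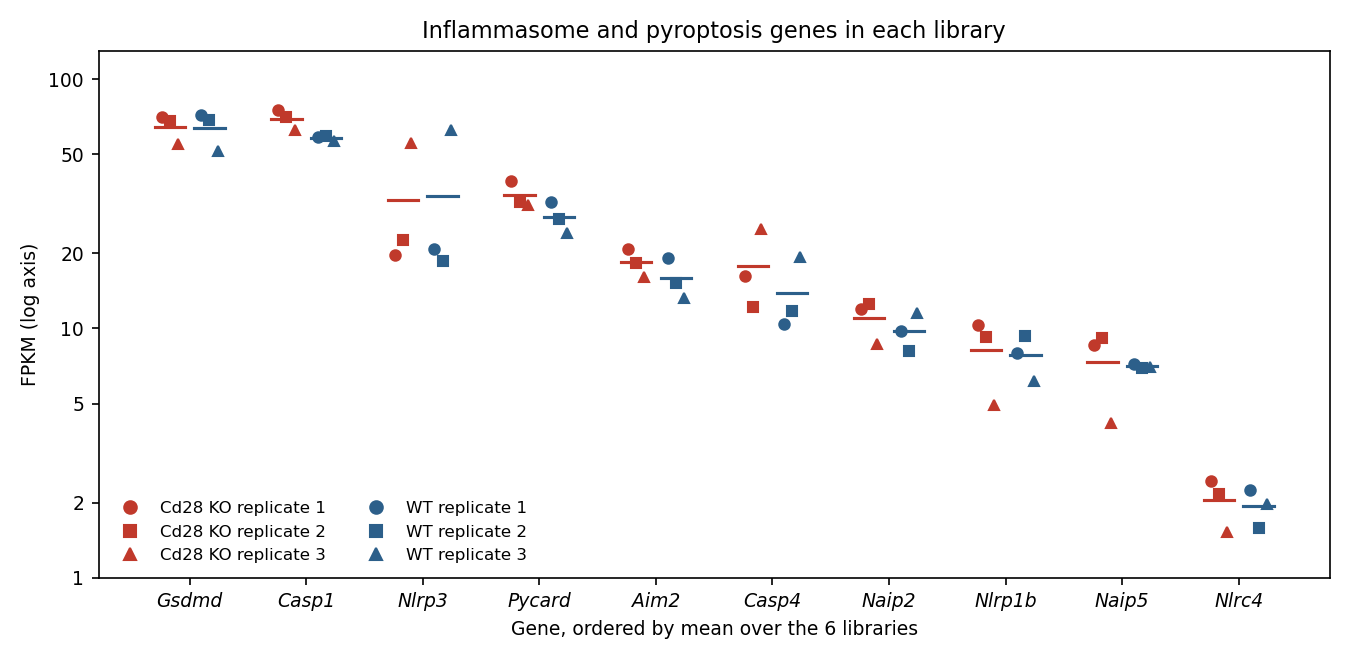
FPKM of the 10 genes in each library on a log axis, Cd28 KO in red and WT in blue, with the symbol giving the replicate number and the short line the group mean. Nlrp3 and Casp4 are highest in the replicate 3 libraries (triangles) of both genotypes, and Casp1 is the gene whose Cd28 KO libraries, 62.4 to 75.4, all lie above the WT libraries, 56.5 to 59.3.

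The first comparison asked how these genes differ between Cd28 KO and WT macrophages. None of the 10 was called by limma at an adjusted p below 0.05, with or without the replicate number as a block. Over all 10172 genes tested, 0.0197% were called higher and 0% lower without a block, and 0.138% and 0.0393% with it, so few calls were made anywhere. At an unadjusted p below 0.05 limma listed 1 member without the block, Casp1, and 3 with it, against 2.49% and 7.89% of all tested genes. All 10 members had passed the filter of a mean of at least 1 FPKM. Their log2 differences, on the log2(FPKM + 1) scale, were positive for 9 of 10 with a median of 0.10, beside 49.1% positive and a median of -0.003 over all tested genes. Those of Nlrp3 (0.009), Nlrp1b (0.013) and Gsdmd (0.015) were small, and each was negative when every library was rescaled to the same sum. Without a block the highest bound of any member's 95% interval, that of Nlrp3, was 2.42-fold, and the lowest, also of Nlrp3, was 0.418-fold.

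Casp1, the protease on which the canonical sensors converge, had all 3 Cd28 KO libraries above all 3 WT libraries. In Cd28 KO, it measured 75.4, 70.4 and 62.4 FPKM, and in WT 58.6, 59.3 and 56.5. The means were 69.4 ± 6.59 and 58.1 ± 1.45 FPKM (SD, n = 3 each), a ratio of 1.19. The spread within Cd28 KO was wider than within WT, and the lowest Cd28 KO library exceeded the highest WT library by little. The log2 difference was 0.25 ± 0.10 (SE), and limma gave an adjusted p of 0.9995 unblocked and 0.55 blocked. Of all tested genes, 3.84% were higher without overlap, and Casp1 was the 1 member of 10. In replicates 1 and 2 alone with the block, a fit with 1 residual degree of freedom added after seeing the data, Casp1 had a limma adjusted p of 0.039, and 553 genes were called in all. That fit assumes that replicates 1 and 2 are paired by number. Unblocked, the same 4 libraries gave Casp1 a limma adjusted p of 0.19.

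Pycard, Aim2 and Casp4 were higher in Cd28 KO within each replicate number, as was Casp1, but their groups overlapped. These 4 members of 10 compare with 15% of all tested genes that were higher within all 3 numbers and 13.3% that were lower. In Cd28 KO, Pycard measured 39.1, 32.2 and 31.4 FPKM, and in WT 32.1, 27.4 and 24.2. Its ratios by number were 1.22, 1.18 and 1.30, a narrow range, and its log2 difference was 0.29 ± 0.15 (SE), with limma adjusted p = 0.9995 and 0.47 with the block. Aim2, the DNA sensor, stood at 20.8, 18.3 and 16.1 FPKM against 19.2, 15.3 and 13.3. Its ratios were 1.09, 1.19 and 1.22, and in both genotypes the replicate 1 library was the highest and the replicate 3 library the lowest. Casp4 stood at 16.3, 12.1 and 25.1 FPKM against 10.5, 11.8 and 19.3, with ratios of 1.56, 1.03 and 1.30, so replicates 2 were close to equal. The log2 differences of Aim2 and Casp4 were 0.21 ± 0.17 and 0.33 ± 0.31 (SE), with limma adjusted p = 0.9995 for each, and 0.68 and 0.55 with the block.

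Monocyte markers were also higher in the Cd28 KO libraries. The summed level of the 5 markers, carried by Ccr2 and Plac8, ran from 32.7 to 38.4 FPKM in the Cd28 KO libraries and from 25.0 to 30.0 in the WT libraries, without overlap. Plac8 did not overlap between the genotypes, Ccr2 did, and Ly6c2 and Chil3 stayed at or below 1.79 FPKM in every library. The part of such cells in the Casp1, Pycard, Aim2 and Casp4 values was not tested, and in bulk samples a different number of cells cannot be told apart from a different amount of RNA per cell.

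**Figure D2:**
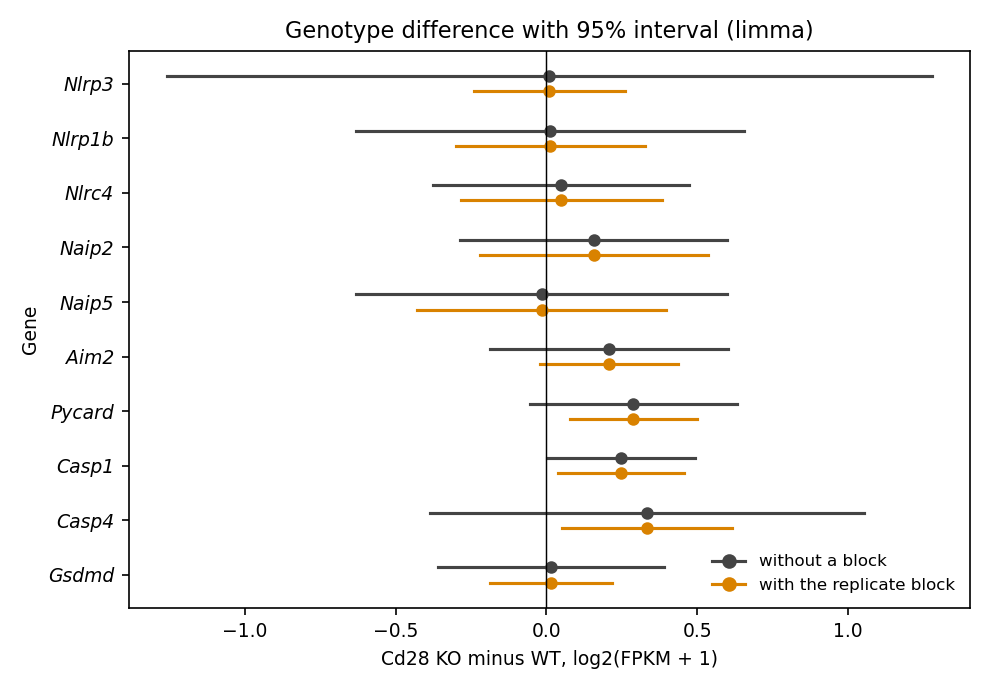
Cd28 KO minus WT on the log2(FPKM + 1) scale for the 10 genes, with 95% intervals from limma without a block (grey) and with the replicate block (orange). The block shortens the interval of Nlrp3 most, from -1.26 to 1.28 down to -0.24 to 0.26, and with it the intervals of Pycard, Casp1 and Casp4 lie above 0 before any adjustment for the number of genes.

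Gsdmd, the pore former, showed nearly equal levels in both genotypes. In Cd28 KO, it measured 70.4, 67.7 and 55.0 FPKM, and in WT 71.8, 68.4 and 51.7, and its ratios by number were 0.980, 0.990 and 1.06. With the block its log2 difference of 0.01 had a 95% interval of -0.19 to 0.22. Nlrp3 stood at 19.6, 22.7 and 55.7 FPKM against 20.8, 18.6 and 62.7. Its ratios were 0.946, 1.22 and 0.888, on both sides of 1, and its log2 difference was 0.01, from -0.24 to 0.26 with the block. These intervals bound the difference but do not show that the genotypes are alike.

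The NAIP and NLRC4 sensors, and Nlrp1b, were higher in Cd28 KO in some replicate numbers and lower in others. In Cd28 KO, Naip5 measured 8.59, 9.14 and 4.19 FPKM, and in WT 7.21, 6.92 and 7.02. The WT libraries hardly differed, while Cd28 KO replicate 3 held less than 5 FPKM and the other 2 Cd28 KO libraries lay above all WT libraries. Naip2 stood at 11.9, 12.6 and 8.68 FPKM against 9.73, 8.15 and 11.5, again with Cd28 KO above WT in replicates 1 and 2 and below it in replicate 3. Nlrc4, their partner, stood at 2.44, 2.17 and 1.53 FPKM against 2.25, 1.58 and 1.97, and Nlrp1b at 10.3, 9.28 and 4.92 against 7.99, 9.36 and 6.18. In replicate 3 the Cd28 KO to WT ratio was 0.597 for Naip5, 0.755 for Naip2, 0.777 for Nlrc4 and 0.796 for Nlrp1b. Over the 10 members, 8 were higher in Cd28 KO in replicate 1, 8 in replicate 2 and 5 in replicate 3, beside 51.5%, 57.6% and 43.1% of all tested genes.

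Whether the genotype difference itself changed between replicate 3 and replicates 1 and 2 was tested as an interaction. By limma 0 of 10 members passed, and 0.0688% of all tested genes did, while 18.9% had an unadjusted p below 0.05. Naip5 had the smallest p among the members, with an interaction of -0.92 ± 0.19 on the log2 scale (SE) and a limma adjusted p of 0.13. For Naip2 the interaction was -0.79 ± 0.20, at a limma adjusted p of 0.14. After rescaling each library to the same sum, the TPM scale, both passed, with limma adjusted p = 0.036 (Naip5) and 0.049 (Naip2). That rescaling moved the median interaction of all genes from -0.08 to -0.24. Of the 10172 genes tested, 145 were then called with a negative and 21 with a positive interaction, against 5 and 2 before it. Replicate 3 is 1 library per genotype, so each interaction rests on those single libraries. Across the 4 libraries of replicates 1 and 2, Naip2 had a log2 difference of 0.42 and Naip5 one of 0.29, with blocked limma adjusted p = 0.020 and 0.22, and unblocked 0.17 for Naip2.

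The NAIP genes are near copies, so their own values carry an extra uncertainty. Of all windows of 50 bases in the Naip5 transcript, 36.8% also occurred in a transcript of another gene, most often Naip6 (22.3%) and then Naip3 (14.5%). For Naip2 it was 19.1%, most often with Naip1 (12.3%) and then Naip3 (10.7%), while for Nlrp3, Pycard, Casp1, Casp4 and Gsdmd it was 0 and for the other 3 members at most 1.5%. The window length was chosen for this check, since no read length is stated. The sum over Naip1, Naip2, Naip5 and Naip6 depends less on how reads were shared out among those 4, but it does not include Naip3. The Cd28 KO sums were 26.2, 28.5 and 16.2 FPKM and the WT sums 22.3, 20.1 and 23.2, so Cd28 KO replicates 1 and 2 were the highest and Cd28 KO replicate 3 the lowest, as for Naip5 alone.

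**Figure D3:**
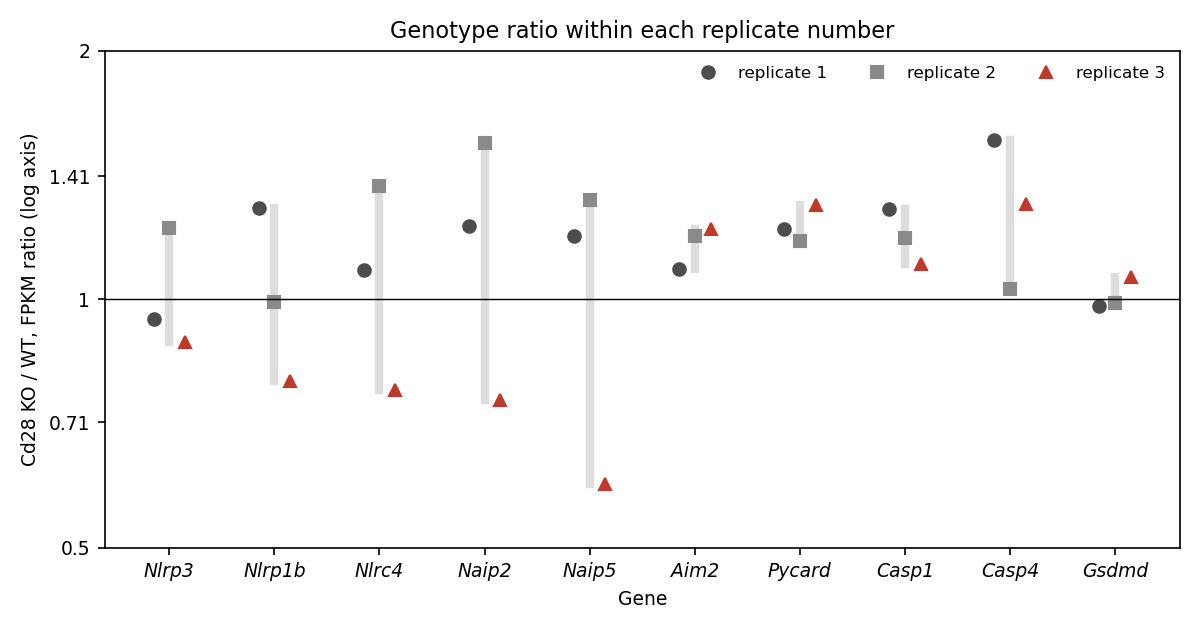
Ratio of Cd28 KO to WT in FPKM within each replicate number, on a log axis, with 1 point per number and a pale bar from the lowest to the highest. Aim2, Pycard, Casp1 and Casp4 lie above 1 in all 3 numbers, and for Naip2, Naip5 and Nlrc4 replicate 3 (red triangles, 0.755, 0.597 and 0.777) lies on the other side of 1 from replicates 1 and 2.

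The second comparison was by replicate number, since the replicate 3 libraries stood apart in both genotypes. Nlrp3 and Casp4 were higher, and Nlrp1b and Gsdmd lower, in both replicate 3 libraries than in all 4 others, and limma's F-test of the replicate number called these 4 of 10 members. Over all tested genes it called 21.4%, 7.13% with both replicate 3 libraries above the other 4 and 13.8% with both below. The labels do not say what the numbers stand for, and each number holds 1 library per genotype. Y-linked transcripts were listed in the replicate 3 libraries alone. A difference of replicate 3 therefore cannot be told apart from one that goes with the presence of these transcripts. The median member was lower in replicate 3 by a log2 difference of -0.20, beside -0.10 over all tested genes.

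Nlrp3 showed the largest difference by number among the members. In replicate 3 it reached 55.7 FPKM (Cd28 KO) and 62.7 FPKM (WT), against 18.6 to 22.7 in the other 4 libraries, a ratio of 2.90 between the means. In Cd28 KO the ratio of replicate 3 to the mean of replicates 1 and 2 was 2.63 and in WT 3.19, so both genotypes showed it, with a limma adjusted p of 1.0e-04 for the replicate number. Casp4 followed, at 25.1 and 19.3 FPKM in replicate 3 and 10.5 to 16.3 elsewhere. Its ratio was 1.77 in Cd28 KO and 1.73 in WT, and its limma adjusted p was 0.0085, or 0.078 without the filter on low values. For Casp1, next to Casp4 on chromosome 9, the replicate 3 ratio was 0.855 in Cd28 KO and 0.959 in WT, at a limma adjusted p of 0.57.

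Nlrp1b and Gsdmd lay at the low end in replicate 3. For Nlrp1b it was 4.92 and 6.18 FPKM there against 7.99 to 10.3 in the others, with a ratio of 0.601 and a limma adjusted p of 0.033. Gsdmd stood at 55.0 and 51.7 FPKM against 67.7 to 71.8, with a ratio of 0.767 and a limma adjusted p of 0.046. Both calls were close to the threshold. Of 11 other settings, 6 lost the call of Gsdmd and 5 that of Nlrp1b, while both differences stayed negative in all 11. Both calls were lost without the filter on low values and on the TPM scale (limma adjusted p = 0.057 and 0.051 on that scale). Gsdmd was also not called without Cd28 KO replicate 1, WT replicate 1 or WT replicate 3. Nlrp1b was also not called without Cd28 KO replicate 1 or Cd28 KO replicate 3. Leaving out a library leaves 1 for its number. Aim2 and Pycard had log2 differences of -0.30 and -0.23, at limma adjusted p = 0.083 and 0.11. Over the 11 other settings these differences ranged from -0.35 to -0.22 for Aim2 and from -0.29 to -0.17 for Pycard. Both genes passed without Cd28 KO replicate 3, and Aim2 also without WT replicate 3. Those fits leave 1 library for replicate 3, so the passes add little.

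Interleukin-1 beta, the main product of caspase-1, moved with Nlrp3 by replicate number. In replicate 3, Il1b reached 9.82 FPKM (Cd28 KO) and 9.54 FPKM (WT), against 0.65 to 1.44 in the other 4 libraries, with a limma adjusted p of 2.9e-05 for the replicate number. By genotype its log2 difference was -0.23 ± 0.89 (SE), at a limma adjusted p of 0.9995. Il18, the other cytokine matured by caspase-1, gave 6.27, 4.63 and 5.29 FPKM with Cd28 KO against 4.43, 2.62 and 5.59 with WT, and Il1a did not exceed 0.68 FPKM. The antagonists Il1rn, at 10.9 to 18.3 FPKM, and Il18bp, at 4.14 to 6.65, did not pass either test, and neither did Il18. In replicates 1 and 2 with the block, the fit added after seeing the data, Il18 had a log2 difference of 0.53 and a limma adjusted p of 0.0082. Neutrophil markers, whose cells are another known source of Il1b, summed to 8.88 and 7.08 FPKM in the replicate 3 libraries and 2.43 to 5.72 in the others. That sum was carried by S100a8 and S100a9, which the F-test of the replicate number did not call (limma adjusted p = 0.068 and 0.058). Ngp averaged higher in replicate 3, at 0.735 FPKM against 0.415. Mpo and Ltf averaged lower there, at 0.10 and 0.06 against 0.1425 and 0.145, and Camp, Elane and Ly6g were at 0. The part of neutrophils in the Il1b and Nlrp3 values was not tested, nor was that of the Y-linked transcripts listed in the same 2 libraries.

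Among the other pathway genes, 62 were listed for this comparison and 46 had a mean of at least 1 FPKM. The F-test of the replicate number called 10 of these 46, beside 21.4% of all genes, 3 with both replicate 3 libraries on top and 7 with both at the bottom. Besides Il1b, those on top were Irf1, an interferon-induced transcription factor, at 57.7 and 57.04 FPKM against 30.4 to 34.6, and Ninj1, which ruptures the membrane of dying cells, at 308 and 270 FPKM against 166 to 196. At the bottom was Txnip, a thioredoxin-binding protein linked to NLRP3 activation, at 59.4 and 70.0 FPKM against 209 to 248. Irf2, which is known to drive Gsdmd transcription, stood at 14.5 and 13.7 FPKM against 34.8 to 37.7. Gsdmd was also lower in both replicate 3 libraries, as were 33.7% of all tested genes. A link between Irf2 and Gsdmd was not tested. Irgb10, a GTPase that acts on bacterial membranes, stood at 4.31 and 4.38 FPKM against 8.90 to 15.1.

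The list on NLRP3 priming and activation had 3 of 12 genes called by replicate number, Txnip, Myd88 and Tlr4, beside 21.4% of all tested genes. Its median replicate 3 difference was 0.007 over all 12. Myd88, the adaptor of most Toll-like receptors, stood at 41.2 and 38.1 FPKM in replicate 3 against 57.9 to 63.8, with a limma adjusted p of 0.0072. Tlr4, the lipopolysaccharide receptor, stood at 10.7 and 13.5 FPKM against 16.4 to 20.1, at a limma adjusted p of 0.0499, a call that ended in 7 of 11 other settings, among them those leaving out Cd28 KO replicate 1 (0.11) or 3 (0.25). Casp8, an apoptotic caspase that also cuts gasdermin D, stood at 18.9 and 16.6 FPKM against 24.9 to 32.1. Pydc3, a pyrin-domain gene that RefSeq names Ifi208, stood at 9.39 and 7.55 FPKM against 10.5 to 17.6, a call lost without the filter on low values (limma adjusted p = 0.093). Of the 12 genes on the priming list, 4 were lower and 2 higher in both replicate 3 libraries than in all others. Over all tested genes these shares were 33.7% and 15.3%. Nlrp3 and Il1b were high in the same 2 libraries, and a link between them and this list was not tested.

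**Figure D4:**
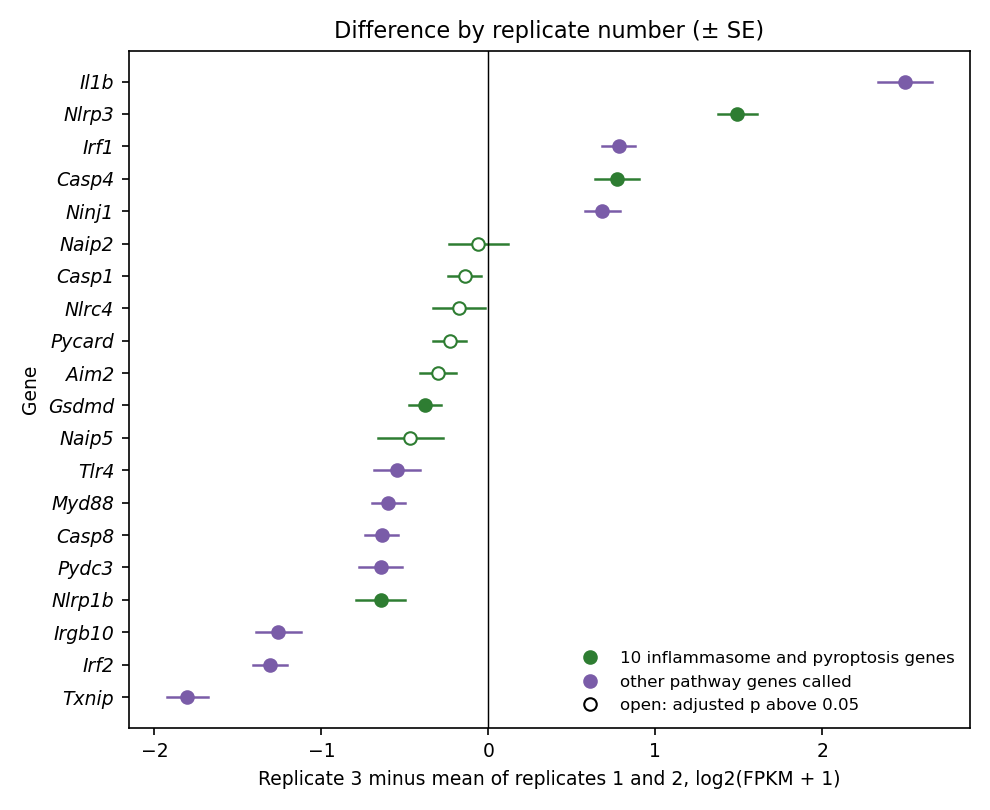
Difference of replicate 3 from the mean of replicates 1 and 2 over both genotypes on the log2(FPKM + 1) scale, with SE, for the 10 genes (green) and the 10 other pathway genes called by limma's F-test of the replicate number (purple). Il1b (2.49), Nlrp3 (1.49), Irf1 (0.78), Casp4 (0.77) and Ninj1 (0.68) lie to the right of 0 and Txnip (-1.80) and Irf2 (-1.31) farthest to the left, and open symbols mark genes not called.

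By genotype, limma called 0 of the 46 other pathway genes in either fit. At an unadjusted p below 0.05 it listed 2 without a block and 6 with it, beside 2.49% and 7.89% of all tested genes. The median log2 difference of the 46 was 0.07, with 34 positive and 12 negative, beside a median of -0.003 and 49.1% positive over all tested genes. Without overlap 4 were higher and 2 lower, beside 3.84% and 2.87% of all genes. Zbp1, a nucleic acid sensor that starts necroptosis and can engage NLRP3, had the smallest p. In Cd28 KO, it measured 70.2, 73.0 and 87.0 FPKM, and in WT 51.3, 45.3 and 51.6, and limma gave an adjusted p of 0.74 unblocked and 0.054 blocked. With a term for replicate 3 in place of the block it passed, at 0.018. Pydc4, which RefSeq names Ifi213 and which lies on chromosome 1 at 173566280 to 173599348, stood at 6.39, 7.17 and 5.73 FPKM against 3.60, 3.98 and 4.56 (limma adjusted p = 0.9995, and 0.28 with the block). Both passed in replicates 1 and 2 alone, at limma adjusted p of 0.043 for Zbp1 and 0.045 for Pydc4.

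Others without overlap differed by less. Sugt1, a chaperone partner of NLR proteins, gave 26.2 to 28.4 FPKM against 21.7 to 25.5 in WT, and Pstpip1, which binds pyrin, gave 39.6 to 45.1 against 35.4 to 39.5. Ifnar1, a chain of the type I interferon receptor, stood lower in Cd28 KO, at 17.7 to 18.4 FPKM against 20.4 to 23.2. These 3 had a limma adjusted p of 0.9995 unblocked and 0.60 to 0.77 blocked. The other sensors ranged widely: Pydc3 averaged 12.2 FPKM, Naip6 stood at 3.13 to 6.64 and Pydc4 at 3.60 to 7.17, while Nlrp6, Nlrp12 and Nlrp1c-ps were listed in no library, Mefv did not exceed 0.40 FPKM and Naip1 0.18. Between these, Nlrp1a stood at 2.52 to 3.85 and Nlrp10 at 0.93 to 1.34. Of the other gasdermins Gsdme stood at 5.97 to 7.82 FPKM, Gsdmc4 did not exceed 0.10 and the other 6 examined were listed in no library, so Gsdmd was the most abundant gasdermin in each library.

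Over the 6 libraries the tested genes most like Casp1 in pattern were Clec4b1, C130026I21Rik and Lsm1, with Pearson correlations of 0.994, 0.986 and 0.982 on the log2(FPKM + 1) scale. These are the 3 highest among all tested genes, over 6 libraries that share genotypes and replicate numbers. In Cd28 KO, Clec4b1 measured 4.78, 4.35 and 3.94 FPKM, and in WT 3.64, 3.64 and 3.56. Clec4b1, like Casp1, had its highest value in Cd28 KO replicate 1 and its lowest in WT replicate 3.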

How the data were processed

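RNA of bone marrow-derived macrophages was sequenced in 3 Cd28 KO and 3 WT libraries, grouped by title. The authors deposited FPKM, 1 value per Entrez gene and library, listing only values from 0.01 up. A missing gene was counted as 0. The submitters' processing notes name Bowtie, RSEM and build GRCm38. No version, read length or depth was found, so counting error is unknown. RSEM shares reads among similar genes by estimation. Of 14574 identifiers, 14551 matched NCBI RefSeq for GRCm38.p6. No 2 libraries shared more than 0.447% of values.

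From these, log2(FPKM + 1) went into a linear fit with trended empirical Bayes (limma 3.58.1, R 4.3.3) over the 10172 genes whose mean reached 1 FPKM. P-values were Benjamini-Hochberg adjusted over all of them and two-sided. This scale understates changes of low genes. The fits were tested on simulated data. Deviations from group means correlated at 0.752, 0.505 and 0.783 between same-numbered libraries, so the numbers were taken to pair them, on the data and no label. Crossed pairs reached 0.535 (Cd28 KO 2 with WT 1) and 0.663 (Cd28 KO 1 with WT 2), so the data set replicate 3 apart and the pairing of replicates 1 and 2 is assumed. A second fit has these numbers as a block. The alternatives were another pseudocount, filter or scaling, a term for replicate 3, replicates 1 and 2 alone and leaving out each library. Added after seeing the data were the block within replicates 1 and 2, leaving out libraries in the test of the replicate number, and all alternatives of the interaction. Of the listed pathway symbols, 1 (Naip7) matched no identifier. Python 3.11.15, with pandas 2.3.3 and NumPy 2.4.6, prepared the values, and Matplotlib 3.10.9 drew the figures.

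Genes named are the 10 members, every other pathway gene called, the interleukin-1 list, up to 4 per other list by smallest p among those without overlap, and the 3 most like Casp1. Other genes were named from the lists to show a range, after their values were seen. Some items are not reported here. Members and lists were chosen with earlier results of these data known.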

Additional observations from a re-analysis of the deposited data

How the results depend on the processing

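With 3 libraries per group and no read depth, the limits are the spread between libraries and the unlike replicate 3. By genotype, 0 members were called in 14 of 15 other settings. The 2 genes called over all genes became 5 without the filter, 18 with the replicate block, 28 with a term for replicate 3, 71 in replicates 1 and 2 and 553 in those with the block, where Casp1 and Naip2 made 2 members called. Leaving out any 1 library left 2 genes called. Casp1, Casp4, Pycard, Aim2 and Naip2 kept a positive difference in each of these settings, but its size moved: without 1 library it was 0.19 to 0.32 for Casp1, 0.07 (without Cd28 KO replicate 3) to 0.58 (without WT replicate 3) for Casp4, 0.19 to 0.39 for Pycard, 0.09 (without WT replicate 3) to 0.34 (without WT replicate 1) for Aim2 and 0.04 (without WT replicate 2) to 0.31 (without Cd28 KO replicate 3) for Naip2.

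Differences near 0 changed sign. On the TPM scale, which moved the median of all genes from -0.003 to -0.06, they were -0.0498 for Nlrp3, -0.0439 for Nlrp1b and -0.0450 for Gsdmd, and with quantile normalization -0.0249 for Nlrp3 and -0.0085 for Gsdmd. In replicates 1 and 2, with or without the replicate block, they were 0.29 for Naip5, -0.0211 for Gsdmd and -0.10 for Il1rn. Leaving out 1 library gave -0.44 to 0.55 for Nlrp3, -0.16 to 0.30 for Nlrp1b, -0.0443 to 0.18 for Nlrc4, -0.19 to 0.29 for Naip5, -0.13 to 0.12 for Gsdmd, -1.12 to 0.54 for Il1b and -0.12 to 0.23 for Il1rn.

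By replicate number, Nlrp3, Il1b, Irf1, Ninj1, Txnip, Irf2, Irgb10, Myd88 and Casp8 kept their call and direction in every other setting that tested them (11, and 10 for Il1b). The members called went from 4 to 1 without the filter (Nlrp3; Casp4 had a limma adjusted p of 0.078), 2 on the TPM scale and 2 to 6 without 1 library. All genes called went from 2180 to 965 without the filter and to 1584 to 3696 without 1 library, highest without Cd28 KO replicate 3 (3696) and WT replicate 3 (3665). Naip2 was at 0.0793 with quantile normalization and at -0.45 to 0.33 without 1 library, where Nlrc4 ranged from -0.38 to 0.0366. Naip2 and Naip5 were called without WT replicate 3, a fit that leaves 1 library for that number. The interaction called 7 genes, 42 without the filter, 166 on the TPM scale with 2 members, and 2 to 55 without 1 library. The cause of these changes was not tested. The replicate block changed no call of a member or other pathway gene over the 6 libraries.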
